A study of Mus musculus with 24 samples.

Results

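The response of liver macrophages to the loss of *Gdf2* and *Bmp10* from hepatic stellate cells (HSCs) was set against that of hepatic endothelial cells (ECs), gene by gene, over 12 of the 24 RNA-seq libraries of the study. The members were the 3 macrophage and 3 EC libraries of *Gdf2/Bmp10* HSC-KO mice and the 3 macrophage and 3 EC libraries of control mice, taken by their labels, on C57BL/6. *Gdf2/Bmp10* HSC-KO mice, labelled Bmp9/10-HSC-KO, carried floxed alleles of both ligand genes together with Lrat Cre, a driver active in HSCs, so that ligand made by other cells or arriving with the blood was not removed by design. The mice were 8 to 10 weeks old. The labels give the macrophage controls as BMP9/10 control and the EC controls as control without an allele. The gate for macrophages was CD45+Ly6C-F4/80+CD64+ and that for ECs CD45-CD31+, and the labels show that 3 of the 9 mice gave a library of each cell type. As other readouts served 6 further macrophage libraries and 6 libraries of whole liver. The macrophages came from mice 8 to 10 weeks old, labelled Smad4FF cKO (floxed *Smad4* with Vav1 Cre) and Smad4FF (controls). The livers came from *Gdf2/Bmp10* HSC-KO and control mice 12 weeks old.

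GDF2 (BMP9) and BMP10 are ligands of the bone morphogenetic protein (BMP) family that bind the type I receptor ALK1 (*Acvrl1*), a type II receptor such as BMPR2 and the coreceptor endoglin (*Eng*). The receptors phosphorylate SMAD1, SMAD5 and SMAD9, which join SMAD4, enter the nucleus and switch on genes such as the *Id* family and the feedback inhibitors *Smad6* and *Smad7*. In the liver the HSCs lie between the hepatocytes and the sinusoid, where Kupffer cells, the resident macrophages, sit on the sinusoidal ECs, a fenestrated endothelium rich in scavenger receptors, so both cell types meet the same ligands. The comparison asks whether the 2 neighbours answer their loss with the same genes.

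Promoter sequences of 7 genes are shown because their genes stand for the 3 patterns of the comparison: a BMP target called in macrophages with a called difference from ECs, interferon-stimulated genes that rose in ECs, and MHC class II genes that rose in both or in ECs. They are from RefSeq (GRCm38.p6), lie within the 250 bases before the RefSeq transcript start and run 5′ to 3′ on the gene's strand. The GENCODE models of *Id3* and *H2-DMb1* start further upstream, so that these windows lie inside the GENCODE genes. In *Id3* the capitals mark CAGAC, a SMAD-binding element, on either strand. In *Ifit1*, *Ifit3*, *Isg15* and *Rsad2* they mark the core of the interferon-stimulated response element (ISRE), which is GAAA, any 2 bases and GAAA, on either strand. In *H2-Eb1* and *H2-DMb1* they mark the core of the X box of MHC class II promoters, which is AG, any base, AAC, any base and GATG.
Id3, chr4:136143572-136143821, plus strand: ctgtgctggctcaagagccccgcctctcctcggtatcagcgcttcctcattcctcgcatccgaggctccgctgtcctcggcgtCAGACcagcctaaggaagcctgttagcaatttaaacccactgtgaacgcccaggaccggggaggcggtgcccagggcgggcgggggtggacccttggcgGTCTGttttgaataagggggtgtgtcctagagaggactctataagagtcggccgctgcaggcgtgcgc
Ifit1, chr19:34640765-34640833, plus strand: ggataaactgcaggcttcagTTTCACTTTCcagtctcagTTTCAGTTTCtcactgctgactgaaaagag
Ifit3, chr19:34583353-34583436, plus strand: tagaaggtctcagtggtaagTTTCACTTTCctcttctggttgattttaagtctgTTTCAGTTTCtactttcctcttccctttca
Isg15, chr4:156200855-156200916, minus strand: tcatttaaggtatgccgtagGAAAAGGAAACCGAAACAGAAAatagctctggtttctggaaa
Rsad2, chr12:26456543-26456592, minus strand: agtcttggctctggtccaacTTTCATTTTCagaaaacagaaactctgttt
H2-Eb1, chr17:34305755-34305805, plus strand: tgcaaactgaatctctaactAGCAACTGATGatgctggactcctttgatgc
H2-DMb1, chr17:34153076-34153126, plus strand: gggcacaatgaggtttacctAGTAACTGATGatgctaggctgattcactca

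Of the 18213 genes tested, 11478 had a promoter in the table. Both strands of these windows held CAGAC in 46.2% of all genes, the ISRE core in 3.35% and the X box core in 0.227%. The ISRE core was found in 7 of the 11 interferon-stimulated genes with a promoter, in 6.83% of the genes that rose in ECs only and in 8.82% of those that fell in macrophages and rose in ECs. The X box core was found in 2 of 4 MHC class II genes. CAGAC was found in 1 of 7 BMP target genes in 49.3% of the genes that fell in macrophages only, in 60.4% of the alike genes that rose and in 4 of 4 MHC class II genes. A match of letters is a description of the window, not of a bound site.

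Total counts ranged from 60449081 to 93068011 per macrophage library and from 66251507 to 87292547 per EC library. The labels of the sorted cells were borne out by their markers: 12 macrophage markers summed to between 28120 and 32025 CPM (counts scaled to the library size) in macrophage libraries and 75.1 to 117 in ECs, and 12 pan-endothelial markers to between 13361 and 15761 in ECs. The pan-endothelial markers reached 56.2 to 303 CPM in control macrophages and 14.6 to 74.5 in HSC-KO macrophages, so control macrophages 1 to 3 held 0.359%, 1.94% and 1.34% of the EC level, and HSC-KO macrophages 0.114%, 0.102% and 0.522%. Macrophage markers in ECs stood at 0.251% to 0.372% of their macrophage level in all 6 libraries. Other markers moved with the genotype in macrophages: the 4 platelet markers summed to 53.6 to 74.7 CPM in controls and 595 to 1045 in HSC-KO mice, the 4 B cell markers to 67.3 to 111 and 177 to 212, the 6 T and NK cell markers to 6.23 to 19.3 and 40.7 to 144, and the 8 hepatocyte markers to 3642 to 4783 and 5061 to 6475. The 4 erythroid markers were lower in HSC-KO mice in both cell types, with 37.2 to 64.1 CPM against 6.60 to 14.8 in macrophages and 11.4 to 46 against 3.31 to 10.5 in ECs. The 4 monocyte markers summed to 10.6 to 12.7 CPM in control and 79.4 to 111 in HSC-KO ECs, mostly as *Ly6c2*, which had means of 0.141 and 65 CPM there, and *Plac8*, with 11.3 and 24.8, while *Ccr2* had 0.0464 and 0.0484. In macrophages the same sum was 101 to 202 CPM in controls and 45.5 to 111 in HSC-KO mice, where the groups overlapped. The part of these cells in the results was not tested, and fewer cells of a type cannot be told apart from less RNA per cell in sorted bulk samples. EC HSC-KO library 1 stood nearest to the controls: it was the highest of the 3 in 63% of the genes that fell and the lowest in 64.9% of those that rose. It came from the same mouse as macrophage HSC-KO library 3, which was the highest of its 3 in 48.8% of the genes that fell and the lowest in 36.5% of those that rose, where library 2 was the lowest in 37.9%. *Gdf2* had 0, 195 and 66 counts in control macrophages and 7, 0 and 12 in HSC-KO macrophages, 241, 108 and 76 in control ECs and 0, 5 and 0 in HSC-KO ECs. The HSC gene *Lrat* had 166, 1658 and 359 counts in control macrophages and 2004, 1027 and 873 in control ECs. In HSC-KO mice it had 465, 407 and 526 in macrophages and 313, 486 and 552 in ECs. The 8 stellate markers summed to 106 to 194 CPM in control macrophages and 149 to 236 in control ECs. The part of HSC RNA in the *Gdf2* counts was not tested.

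Most called genes were called in 1 cell type. A gene was called when the quasi-likelihood test of edgeR, run over 18213 genes, gave a Benjamini-Hochberg adjusted p below 0.05 and a log2 value over 1 in size. The macrophages gave 1897 called genes (10.4% of those tested), 1029 higher (5.65%) and 868 lower (4.77%) in HSC-KO mice, and the ECs gave 2066 (11.3%), 1100 higher (6.04%) and 966 lower (5.3%). The difference between the responses, macrophage log2 fold change minus EC log2 fold change, was called for 2244 genes (12.3%), 1151 (6.32%) higher and 1093 (6%) lower in macrophages, and had an unadjusted p below 0.05 for 29.7%. The libraries of the 2 genotypes did not overlap in 36.8% of the genes in macrophages and 36.4% in ECs. Of the 3449 genes called in either cell type, 1746 (50.6%) had a called difference. 514 genes were called in both cell types, 27.1% of the macrophage genes and 24.9% of the EC genes, and 342 of these moved the same way. Across the 11316 genes expressed in both cell types, at a mean of at least 1 CPM in a group of each, the 2 log2 fold changes correlated weakly (Pearson's r = 0.19, Spearman's rho = 0.07). This is a description across genes, which are not independent replicates, and the points share 3 mice and 1 normalization. The median log2 fold change of all genes was 0.04 in macrophages and 0.00 in ECs.

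The called genes fell into classes by direction and by the test of the difference. 266 genes (1.46% of those tested) changed alike, called in both with the same sign and no called difference, 143 higher and 123 lower. 172 genes (0.944%) went in opposite directions, 79 higher in HSC-KO macrophages and lower in HSC-KO ECs and 93 the reverse. 667 genes (3.66%) changed in macrophages only and 831 (4.56%) in ECs only, each with a called difference, and 76 (0.417%) moved the same way by different amounts. For a further 716 genes (3.93%) called in macrophages alone and 721 (3.96%) called in ECs alone the difference was not called, so their response is not shown to belong to 1 cell type, and in 498 (2.73%) the difference was called alone. In the same way an uncalled difference does not show equal responses: the 95% interval of the difference lay within 1 log2 unit of 0 for 27 of the 266 alike genes and within 2 for 111. The number of genes that stayed in their class whichever 1 library was left out was 92 of the 266 alike, 23 of the 76 same-direction, 76 of the 172 opposite, 369 of the 667 macrophage-only and 461 of the 831 EC-only genes.

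**Figure D1:**
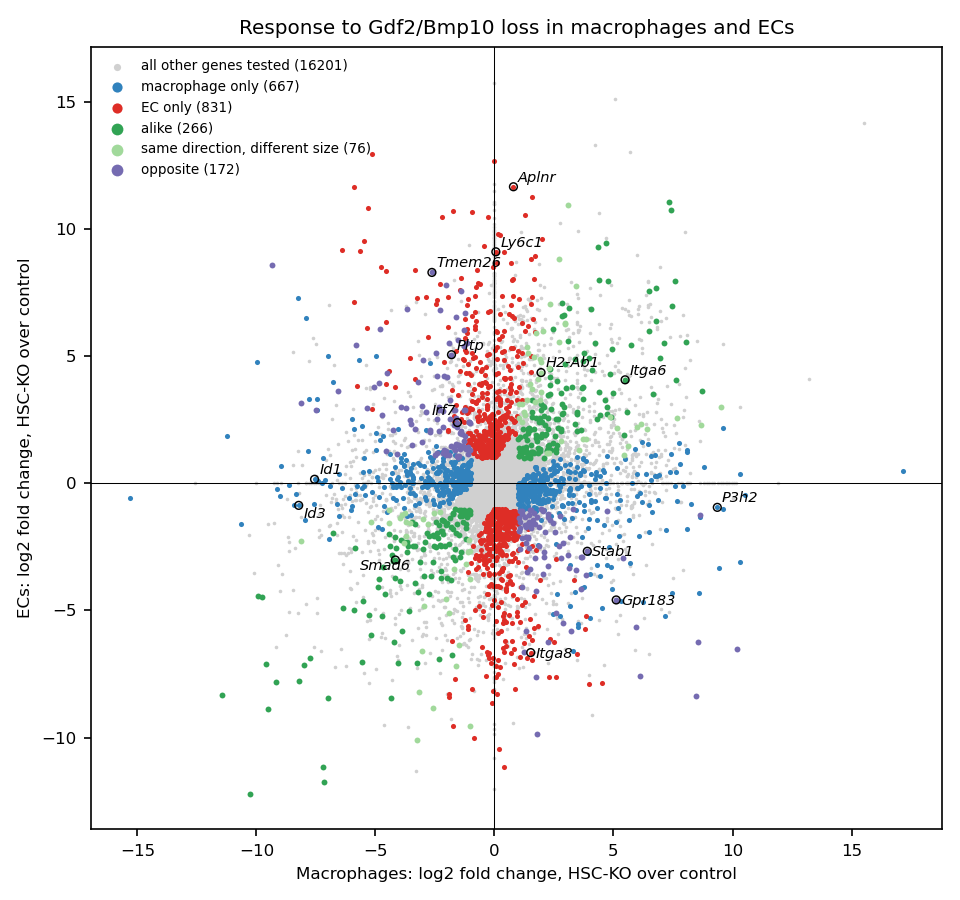
Log2 fold change (HSC-KO over control) in macrophages on the x axis against that in ECs on the y axis, 1 point per gene, coloured by class. The alike genes lie near the diagonal, the 172 opposite genes fill the other quadrants, and the macrophage-only and EC-only genes spread along the axes.

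The receptor genes called in macrophages and in ECs were not the same. Of 10 BMP and TGF-β receptor and coreceptor genes tested out of 11, 2 rose and 1 fell in macrophages, and 2 rose and 2 fell in ECs. They had 4 called differences and medians of 0.55 and -0.20. The 2 that rose in macrophages were *Tgfbr1* and *Tgfbr2*, receptors of TGF-β, and the 1 that fell was *Bmpr1a*. The receptor *Acvrl1* (chr15:101128522-101145336, GRCm38) had 192, 167 and 209 CPM in control macrophages and 189.9, 218 and 197 in HSC-KO macrophages. In ECs it had 59.4, 53 and 59.2 CPM in controls and 224, 149 and 195 in HSC-KO mice. The macrophage groups overlapped, whereas every HSC-KO EC library lay above every control, and the responses differed by -1.63 log2 units (SE 0.22, adjusted p = 0.000668, edgeR). *Acvr1*, the type I receptor ALK2, went the other way in ECs, from 38.2, 33.7 and 30 CPM to 12.4, 9.47 and 10.1, while it stood at 7.16, 5.72 and 5.13 and at 9.89, 9.32 and 11.1 in macrophages. Its difference was 2.42 (SE 0.25, adjusted p = 0.000108). *Eng* fell in ECs from a mean of 3189 to 1283 CPM (log2 -1.31, SE 0.39, adjusted p = 0.0424) and had 41.5 CPM in control and 62.8 in HSC-KO macrophages, 1.08 and 19.9 times what the EC marker share would bring, and its difference of 1.91 (adjusted p = 0.0392) lost its call in 13 of 22 alternative settings. *Tgfbr1*, the type I receptor of TGF-β, rose in macrophages from 75.8, 70.4 and 47.3 CPM to 473, 525 and 318 (log2 2.77, SE 0.22, adjusted p = 2.04e-05). In ECs it had 16.5, 16.2 and 17.4 CPM in controls and 14.6, 17.5 and 14.7 in HSC-KO mice, and the difference was 2.86 (SE 0.30, adjusted p = 0.000124). *Bmpr2* was called in neither cell type, with a difference of 0.29 and a 95% interval of -0.17 to 0.75.

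Of 13 BMP target and feedback genes tested out of 15, 8 fell in macrophages, while 4 fell and 1 rose in ECs, and 5 differences were called, all lower in macrophages. The median log2 fold change was -4.16 in macrophages, or -2.66 with 3 genes near 0 counts there (*Smad9*, *Atoh8* and *Msx1*) at the bound that 3 counts allow, and -0.86 in ECs. *Id3* (chr4:136143497-136145755), whose promoter is printed above, encodes an inhibitor of basic helix-loop-helix transcription factors. It had 1245, 1022 and 1062 CPM in control macrophages and 1.95, 2.18 and 7 in HSC-KO macrophages. In ECs it had 1449, 1276 and 1111 CPM in controls and 1163, 353 and 591 in HSC-KO mice. The macrophage groups were far apart, and 1 HSC-KO EC library lay within the range of the EC controls, so that the log2 fold changes were -8.22 (SE 0.67, adjusted p = 2.2e-05) and -0.86 (SE 0.49, adjusted p = 0.278), and their difference was -7.36 (SE 0.77, adjusted p = 0.000123).

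*Id1* (chr2:152736251-152737410), of the same family, had 22.6, 14.8 and 10.5 CPM in control macrophages and 0.16, 0 and 0.0941 in HSC-KO macrophages, but 36.3, 21.2 and 21.5 in control ECs and 39.2, 24.6 and 24.6 in HSC-KO ECs. The EC groups overlapped, and the responses differed by -7.72 (SE 0.82, adjusted p = 0.000135). *Hey1*, a transcriptional repressor also used by Notch signalling, had 6.93, 5.24 and 10.1 CPM in control macrophages and 0.197, 0.147 and 0.141 in HSC-KO macrophages, and 1.7, 1.42 and 2.99 and 2.92, 3.64 and 1.69 in ECs. Its difference was -5.94 (SE 0.59, adjusted p = 9.32e-05). *Id1*, *Id3* and *Hey1* were thus lower by 188, 299 and 45.5 times in HSC-KO macrophages, by the fitted fold change, and in ECs *Id1* and *Hey1* were 1.12 and 1.35 times higher and *Id3* 1.82 times lower, none of them called.

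The feedback inhibitors fell in both cell types. *Smad6* had 6.62, 6.58 and 8.51 CPM in control macrophages and 0.0863, 0.677 and 0.435 in HSC-KO macrophages, and fell in ECs from 64.8, 71.2 and 54.5 to 10.9, 7.34 and 5.34. *Smad7* fell from 18.5, 15.1 and 19.6 CPM to 4.8, 4.97 and 5.91 in macrophages and from 43.1, 69.6 and 47.4 to 15.5, 13.1 and 17.5 in ECs. No HSC-KO library reached a control library in any of these 4 contrasts. The *Smad7* responses differed by 0.03 with a 95% interval of -0.59 to 0.66, and those of *Smad6* by -1.15 with an interval of -2.57 to 0.27. *Id2*, the remaining broadly expressed *Id* gene, fell in ECs from 46.8, 58.8 and 29.8 CPM to 13.7, 5.57 and 8.69 (log2 -2.28, adjusted p = 0.00413) and had 80.4, 64.7 and 63.7 against 36.4, 12.5 and 35.3 in macrophages (log2 -1.31, adjusted p = 0.0549), and the difference was not called. Of the 6 *Smad* genes of the branch, 3 fell in macrophages, 3 fell in ECs and *Smad5* rose in ECs, from a mean of 57.5 to 178 CPM against 41.1 and 44 in macrophages (difference -1.53, SE 0.17, adjusted p = 0.000213), though an annotated gene model overlaps its exons on the same strand. The branch had medians of -1.16 and -0.90. *Smad4* was called in neither, with a difference of 0.01 and an interval of -0.48 to 0.50.

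**Figure D2:**
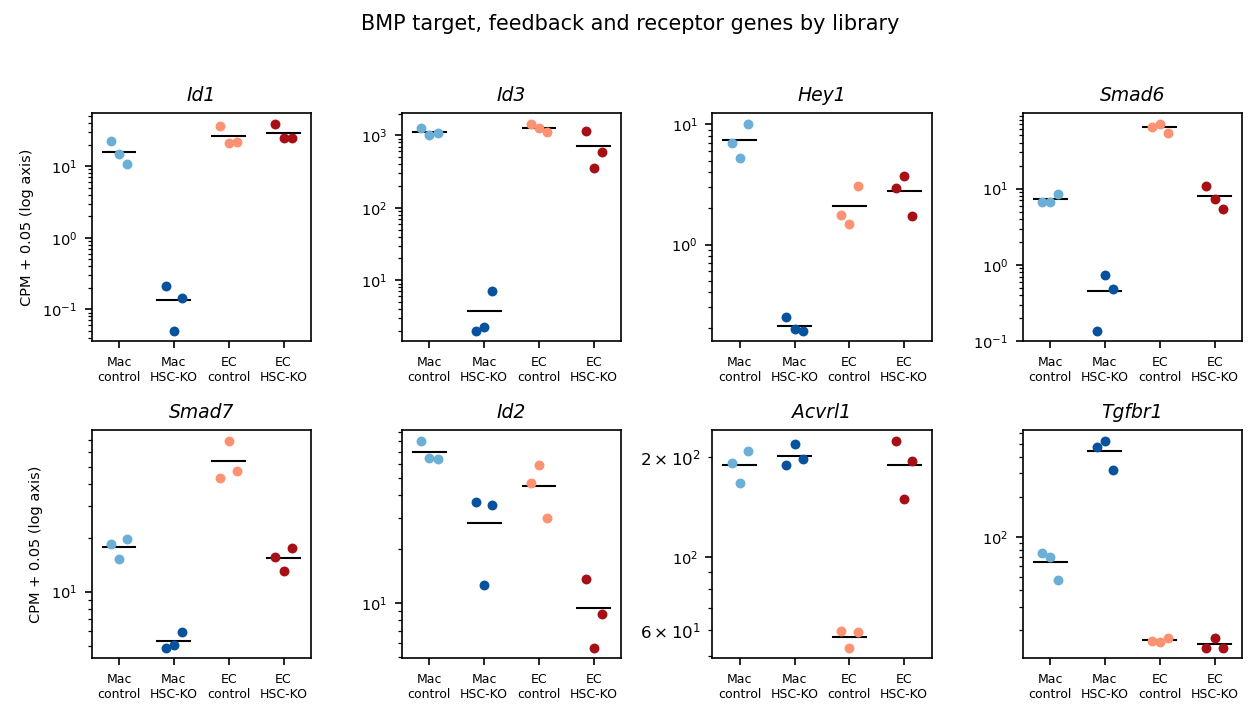
CPM per library, plus 0.05 on a log axis, of BMP receptor, target and feedback genes and *Tgfbr1* in the 4 groups, with points for libraries and bars for group means. *Id1*, *Id3* and *Hey1* drop in HSC-KO macrophages, where no library overlaps with a control, while in ECs their groups overlap, *Smad6* and *Smad7* drop in both cell types, and *Acvrl1* rises in HSC-KO ECs.

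The genes that responded in macrophages only held 346 that rose and 321 that fell. Their medians were 2.32 and -2.23 in macrophages (2.13 and -2.20 with genes near 0 counts in a group at their bound) and -0.30 and 0.16 in ECs. Among those expressed in both cell types that met the rule for named genes, given below, the largest differences in the rising genes were those of *P3h2*, *Cd63*, *Bhlhe41*, *Ramp1* and *Myo5a*. *Cd63*, a tetraspanin of late endosomes, had 4.95, 7.18 and 4.98 CPM in control macrophages and 723, 807 and 521 in HSC-KO macrophages. In ECs it had 32.4, 69.7 and 36.2 in controls and 95.2, 40 and 38 in HSC-KO mice, with overlapping groups and a difference of 6.58 (SE 0.60, adjusted p = 5.06e-05). *Bhlhe41*, a transcriptional repressor of the basic helix-loop-helix family, rose from 1.81, 1.55 and 0.917 CPM to 156, 162 and 95.7 in macrophages and had means of 2.27 and 2.49 in ECs (difference 6.45, adjusted p = 3.73e-05). *Ramp1*, an accessory protein of the CGRP receptor, rose 38.2 times and *Myo5a*, a vesicle motor, 87.2 times in macrophages. *P3h2*, a collagen prolyl hydroxylase, was at 0.114, 0 and 0 CPM in control macrophages and 42, 23.3 and 20.3 in HSC-KO macrophages, and at means of 23.7 and 12.3 in ECs. Its HSC-KO macrophage mean was 28.5 CPM, of the order of the EC means.

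With the same limits, the macrophage-only genes that fell were led by *Id1*, *Cdh5*, *Id3*, *St3gal5* and *Dysf*. *Cdh5* encodes VE-cadherin, the adhesion molecule of endothelial junctions, which Kupffer cells also express. It had 304, 274 and 211 CPM in control macrophages and 0.962, 0.824 and 2.88 in HSC-KO macrophages, against 605, 596 and 470.0 and 654, 582 and 553 in ECs (difference -7.50, SE 0.59, adjusted p = 2.54e-05). The control macrophage level was 39 times what their pan-endothelial marker share would bring, and the HSC-KO level 1.06 times. *St3gal5*, the GM3 ganglioside synthase, fell from 654, 612 and 549.7 CPM to 2.63, 1.99 and 4.79 in macrophages, while in ECs it had a mean of 104 in controls and 59.1 in HSC-KO mice (difference -6.77, SE 0.45, adjusted p = 7.77e-06). *Dysf*, a membrane repair protein, had a mean of 95.5 CPM in control and 3.06 in HSC-KO macrophages and 181 and 447 in ECs (log2 1.30 there, adjusted p = 0.18). *Il18bp*, a secreted inhibitor of interleukin-18, fell from 1480, 1531 and 1350 CPM to 57.5, 62.1 and 86.5 in macrophages and had means of 32.7 and 36.6 in ECs (difference -4.56, SE 0.28, adjusted p = 6e-06).

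In ECs only, 409 genes rose and 422 fell, with medians of 2.64 and -2.07 in ECs (2.47 and -1.95 with such genes at their bound) and -0.23 and 0.28 in macrophages. *Rgcc*, a regulator of the cell cycle, had 0.327, 0.351 and 0.203 CPM in control ECs and 359, 984 and 812 in HSC-KO ECs, and means of 0.477 and 1.41 in macrophages (difference -9.68, SE 1.03, adjusted p = 0.000133). *Ebf1*, a transcription factor, rose from 0, 0.168 and 0.305 CPM to 141, 357 and 283 in ECs, and *Sparcl1*, a matricellular protein, from 2.94, 2.01 and 0.787 to 409, 954 and 959. *Slc28a2*, a nucleoside transporter, rose in ECs from 0.0467, 0 and 0 CPM to 5.52, 15.7 and 29.2 and stood at 46, 43 and 46 and at 52.7, 48.8 and 48 in macrophages, where the groups were close. *Ly6c1* rose in ECs from 7.02, 2.33 and 7.97 CPM to 3664, 2850 and 3095. The macrophages were sorted as Ly6C- cells, and the part of that gate in their *Ly6c1* level was not tested. *Ly6c1* and *Slc28a2* have near-identical copies, and how multiply mapped reads were counted is not given in the sources used here.

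Among those expressed in both cell types that met the rule for named genes, the EC-only genes that fell were led by *Gpc1*, *Itga8*, *Cd209b*, *Tpbgl* and *Ppp1r9a*. *Gpc1*, a heparan sulphate proteoglycan of the cell surface, had 84.1, 74.5 and 52.2 CPM in control ECs and 0.415, 0.0655 and 0.023 in HSC-KO ECs, and means of 1.91 and 1.81 in macrophages (difference 8.56, SE 0.97, adjusted p = 0.000213). *Itga8*, an integrin subunit, fell from 130.4, 140.0 and 128 CPM to 1.59, 1.6 and 0.758. *Ppp1r9a*, the actin-binding neurabin, fell from 11, 21 and 12.1 CPM to 0.0809, 0.17 and 0.0804 in ECs and had 38.8, 40.4 and 14.9 in control and 30.5, 30 and 24.2 in HSC-KO macrophages (difference 6.91, SE 0.62, adjusted p = 4.74e-05). *Cd209b*, a lectin with close paralogues, fell from a mean of 20.8 to 0.0236 CPM in ECs and had 4.32 and 1.29 in macrophages. The mannose receptor *Mrc1* is shared by both cell types: it had 761, 795 and 527 CPM in control and 898, 1104 and 698 in HSC-KO macrophages, and fell in ECs from 1271, 1446 and 1405 to 306, 54 and 49.3. The 3.71 log2 units between these responses were called (SE 0.83, adjusted p = 0.0119). The transcription factor *Maf* showed the same order, with a fall in ECs from a mean of 1613 to 414 CPM and means of 747 and 1416 in macrophages (difference 2.88, SE 0.57, adjusted p = 0.00574).

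Genes that changed alike included surface molecules, enzymes and scavenger receptors. *Itga6*, a laminin receptor subunit, had 1.46, 0.781 and 1.96 CPM in control and 27.4, 111 and 49.2 in HSC-KO macrophages, and 18.9, 18 and 13.7 in control and 156, 203 and 493 in HSC-KO ECs. No HSC-KO library overlapped with a control in either cell type, which the rule for named genes required. The log2 fold changes were 5.49 and 4.08, and their difference of 1.41 had a 95% interval of -0.27 to 3.09. *Tspan13*, a tetraspanin, rose from 21.3, 29.5 and 18.9 CPM to 223, 182 and 157 in macrophages and from 16.2, 12.9 and 18.9 to 127, 242 and 285 in ECs (difference -0.75, interval -1.64 to 0.13). *St8sia4*, a polysialyltransferase, rose 7.19 and 6.63 times, and *Tes*, a focal adhesion protein, 6.43 and 4.48 times. *Me2*, the mitochondrial malic enzyme, fell from 81.3, 74.4 and 82.8 CPM to 14, 11.7 and 20.1 in macrophages and from 55.4, 57.1 and 43.8 to 14.4, 11.1 and 9.92 in ECs. Its groups did not overlap in either cell type, again as the rule required, and the difference of -0.24 had an interval of -0.88 to 0.40. *Slco2a1*, a prostaglandin transporter, and *Hs3st3b1*, a heparan sulphate sulphotransferase, fell 25.8 and 7.59 times in macrophages and 9.83 and 4.92 times in ECs.

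*Stab2*, a hyaluronan scavenger receptor of sinusoidal ECs, had 225, 297 and 219 CPM in control and 35.3, 20.3 and 38.1 in HSC-KO macrophages, and 2297, 2034 and 2300 in control and 908, 110.1 and 94.2 in HSC-KO ECs. EC HSC-KO library 1 was the high one. With it the responses differed by -0.41 (interval -2.55 to 1.73), and without it by 1.45 (adjusted p = 0.0204), and *Stab2* stayed in the alike class in 3 of the 12 fits that left out 1 library. Its control macrophage level was 9.24 times what the pan-endothelial marker share would bring. *Clec1b*, the podoplanin receptor CLEC-2, fell from a mean of 689 to 18.8 CPM in macrophages and from 273 to 4.3 in ECs, with the caveat that an exon overlaps *Clec9a* on the same strand. 215 of the 266 alike genes (80.8%) and 162 of the 172 opposite genes (94.2%) lay above 5 times the other cell's marker share in both cell types. The alike class also held genes below it: *Clec4f*, the Kupffer cell lectin, had 12812, 13088 and 11807 CPM in control and 8.83, 3.51 and 17.8 in HSC-KO macrophages, and 7.11, 7.51 and 7.52 in control and 0, 0 and 0 in HSC-KO ECs, where the control level was 0.172 times the macrophage marker share.

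Opposite responses were found for 172 genes, and in 95 of them the cell type with the higher mean switched between control and HSC-KO mice, as it did for 25.1% of all genes tested and for 29 of the 266 alike genes. The definition of the opposite class favours such a switch and that of the alike class hinders it. These counts therefore follow in part from the definitions. *Stab1*, a scavenger receptor shared by sinusoidal ECs and some macrophages, had 73.5, 77 and 47.3 CPM in control and 1263, 933 and 758 in HSC-KO macrophages, and 1628, 1468 and 1570 in control and 371, 164 and 198 in HSC-KO ECs. The groups were apart in both cell types, the log2 fold changes were 3.90 and -2.67, and they differed by 6.57 (SE 0.48, adjusted p = 1.21e-05). *Hvcn1*, a voltage-gated proton channel, rose from 1.33, 1.93 and 1.81 CPM to 89, 53.3 and 69.4 in macrophages and fell from 63.2, 38 and 52.3 to 9.07, 6.84 and 4.26 in ECs. *Lgals1*, the lectin galectin-1, rose from 5.4, 12.1 and 8.85 to 98.8, 113 and 116 in macrophages and fell from 214, 178 and 299.6 to 24.7, 35.5 and 32.7 in ECs. In these 2 genes too no libraries overlapped between genotypes, which the rule for named genes required of them. Their differences were 8.31 (SE 0.47) and 6.54 (SE 0.42), with adjusted p = 3.89e-06 and 6.86e-06.

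*Gpr183*, an oxysterol receptor, had 1.21, 1.23 and 0.43 CPM in control and 25.6, 52.4 and 22.7 in HSC-KO macrophages, and 12, 9.48 and 16.6 in control and 0.152, 0.72 and 0.723 in HSC-KO ECs (difference 9.70, SE 0.88, adjusted p = 4.91e-05). *Fcgr2b*, the inhibitory Fc receptor carried by sinusoidal ECs, had 6.23, 53.5 and 32.1 CPM in control and 576, 372 and 361 in HSC-KO macrophages, and 2809, 2510 and 2457 in control and 564, 46.4 and 25.2 in HSC-KO ECs. The groups did not overlap, which the rule for named genes required. The single effects were close to the threshold (adjusted p = 0.0349 and 0.0415), and *Fcgr2b* kept the opposite class in 1 of the 12 fits that left out a library. Its difference was 7.45 (SE 1.53, adjusted p = 0.00749) and ranged from 6.92 to 10.01 over the alternatives. The control macrophage level was 0.976 times what the EC marker share would bring. *Lrrc3*, a leucine-rich repeat protein, rose 8.54 times in macrophages and fell 7 times in ECs.

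In the other direction, *Tmem26*, a transmembrane protein, had 131, 152 and 119.7 CPM in control and 16.5, 16.3 and 32.4 in HSC-KO macrophages, and 0.175, 0.0916 and 0.0508 in control and 24.8, 34 and 44.8 in HSC-KO ECs (difference -10.93, SE 0.58, adjusted p = 3.89e-06). *Tnfaip2*, a TNF-induced protein linked to membrane nanotubes, fell from 366, 314 and 352 CPM to 68, 56.4 and 69.3 in macrophages and rose from 7.48, 7.92 and 7.04 to 109, 109 and 199.8 in ECs. No libraries of these 2 genes overlapped between genotypes, which the rule for named genes required. In HSC-KO mice the mean of each was higher in ECs than in macrophages, the reverse of the controls. *Palm*, a membrane-bound paralemmin, fell 7.38 times in macrophages and rose 6.95 times in ECs, *Lzts1*, a leucine zipper protein, 13 and 7.92 times, and *Nxpe4* 5 and 7.4 times. *Nr1h3*, the nuclear receptor LXRα that holds Kupffer cell identity, fell from 779, 697 and 1232 CPM to 33.3, 21.7 and 84.4 in macrophages and rose from 1.69, 1.28 and 2.91 to 6.36, 9.22 and 9.76 in ECs, where the control level was 0.635 times the macrophage marker share and the HSC-KO level 61.1 times. Its target *Lpl*, lipoprotein lipase, fell from a mean of 1196 to 386 CPM in macrophages and rose from 1.11 to 6.64 in ECs. *Igf1*, a growth factor named after its values were seen, fell from a mean of 988 to 417 CPM in macrophages and rose from 2.13 to 222 in ECs, and kept the opposite class in 5 of the 12 fits that left out a library.

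**Figure D3:**
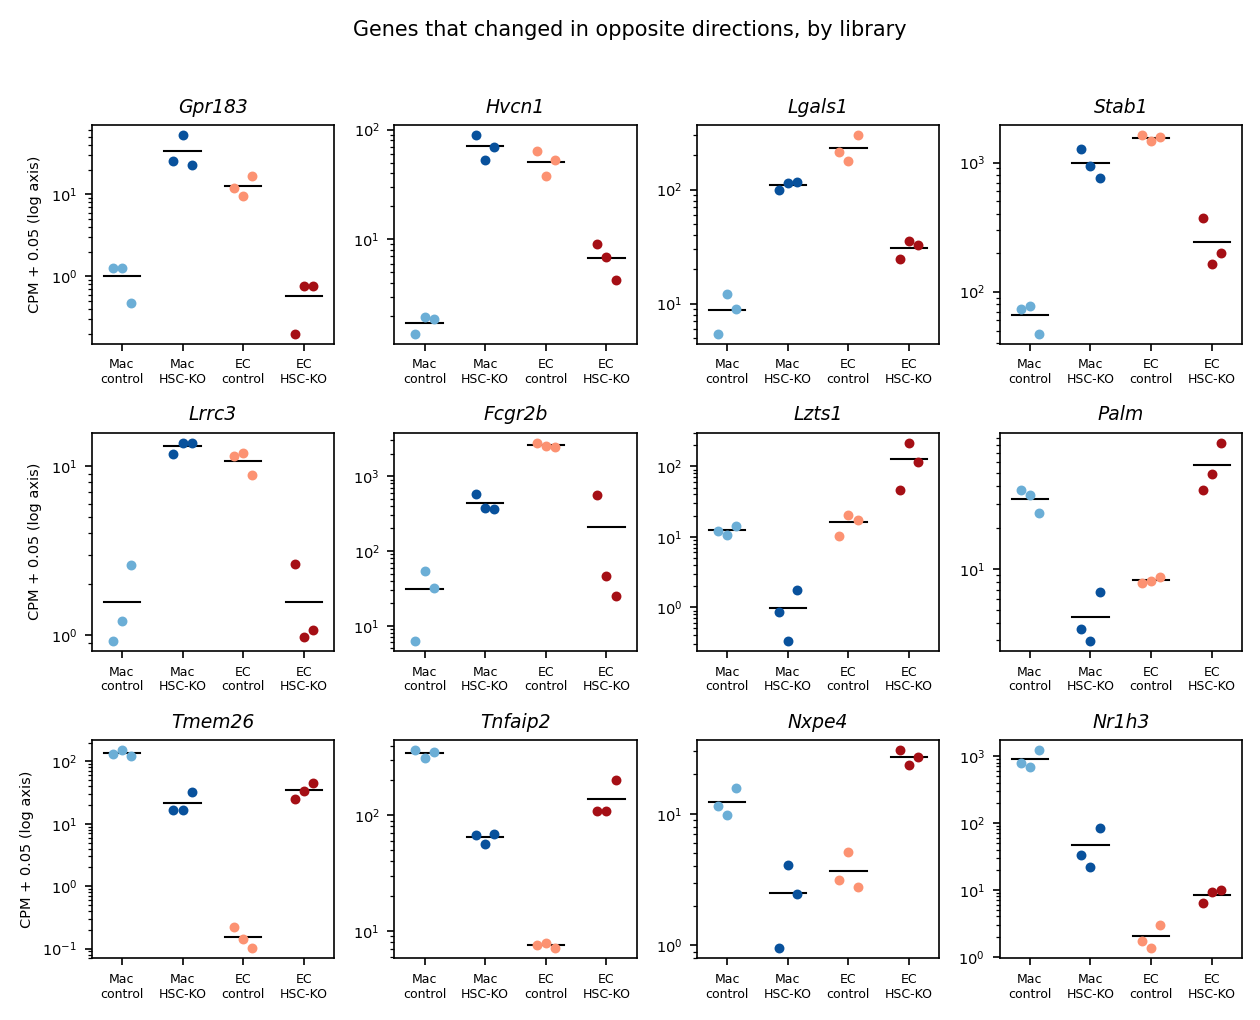
CPM per library, plus 0.05 on a log axis, of genes with opposite responses in macrophages and ECs, with points for libraries and bars for group means. *Stab1*, *Hvcn1* and *Lgals1* rise in HSC-KO macrophages and fall in HSC-KO ECs, and *Tmem26* and *Tnfaip2* do the reverse.

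The gene lists differed in how many of their members were called in each cell type. Of the 15 interferon-stimulated genes, 10 rose and 1 fell in ECs, and 2 fell in macrophages, and 10 differences were called, all lower in macrophages. Their median log2 fold change was 1.63 in ECs and -0.17 in macrophages. *Irf7*, the transcription factor that amplifies interferon, had 1605, 1744 and 2804 CPM in control and 603, 679.8 and 809 in HSC-KO macrophages, and 116, 110.0 and 108 in control and 424, 701 and 631 in HSC-KO ECs. *Rsad2* (viperin), with the ISRE core in its promoter, fell from 148, 137 and 139 CPM to 64.7, 72 and 43.5 in macrophages and rose from 104, 157 and 142 to 714, 962 and 1311 in ECs. The groups of both genes were apart in each cell type, and the differences were -3.95 (SE 0.36, adjusted p = 4.74e-05) and -4.12 (SE 0.37, adjusted p = 4.53e-05). *Isg15*, a ubiquitin-like modifier, had 41.9, 42.9 and 78.9 CPM in control and 39.5, 78.2 and 52.4 in HSC-KO macrophages, and rose in ECs from 35.6, 33 and 29.5 to 103, 131 and 142. *Ifit1*, an RNA-binding antiviral protein, had a mean of 37.6 CPM in both macrophage groups and rose from 32 to 142 in ECs, and *Ifit3* fell short of the log2 threshold in macrophages (-0.87) and rose in ECs (1.73).

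MHC class II genes rose in both cell types but from levels far apart. All 7 rose in ECs and 5 of 7 in macrophages, with medians of 3.81 and 1.92, and 6 differences were called, each with the larger log2 fold change in ECs. *H2-Ab1*, a class II beta chain, had 5727, 6383 and 8408 CPM in control and 23598, 31244 and 24830 in HSC-KO macrophages, and 9.99, 9.46 and 9.81 in control and 219.5, 178 and 205 in HSC-KO ECs. The groups were apart, with log2 fold changes of 1.96 and 4.36 that differed by -2.40 (SE 0.28, adjusted p = 0.000249). *Ciita*, the master regulator of class II transcription, rose from a mean of 31.4 to 118 CPM in macrophages and from 0.108 to 3.16 in ECs. *H2-Eb1*, the gene of the list that changed alike, rose 5.26 and 7.53 times, but its EC level stood at 0.635 times the macrophage marker share in controls and 1.05 times in HSC-KO mice, and *H2-Ab1*, *H2-Aa* and *Cd74* went from 0.417, 0.413 and 0.377 to 2.54, 1.52 and 1.23 times that share. *H2-DMb1*, an EC-only gene, had the highest such value in HSC-KO ECs, 9.65 times, from 0.502 in controls. The macrophage markers themselves summed to 91.3 to 117 CPM in control and 75.1 to 111 in HSC-KO ECs. The higher B cell marker sum in HSC-KO macrophages and monocyte marker sum in HSC-KO ECs, given above, moved with these genes, and their part was not tested.

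Of 8 angiocrine genes, signals that ECs send to hepatocytes and HSCs, 7 fell and 1 rose in ECs, with a median log2 fold change of -4.60, against 1 fall and 1 rise and a median of -0.38 in macrophages, and 5 of the 8 differences were called. The Wnt ligand *Wnt2* fell in ECs from 485, 358 and 634 CPM to 16, 12.7 and 11, and the Wnt enhancer *Rspo3* from 109.9, 56.3 and 105 to 3.45, 3.85 and 2.16. *Hgf*, the hepatocyte growth factor, fell in ECs from 14.6, 17.5 and 25.5 CPM to 0.89, 0.668 and 1.25 and had 4.4, 5.4 and 2.25 in control and 3.69, 2.58 and 3.82 in HSC-KO macrophages, where the groups overlapped (difference 4.09, SE 0.51, adjusted p = 0.000403). *Pdgfb*, a mitogen of HSCs and pericytes, rose in both, 3.5 times in macrophages and 17.2 times in ECs. *Wnt2* in control macrophages stood at 0.911 times the EC marker share, so its called fall there, from a mean of 5.43 to 0.203 CPM, went with the fall of that share, whose part was not tested.

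**Figure D4:**
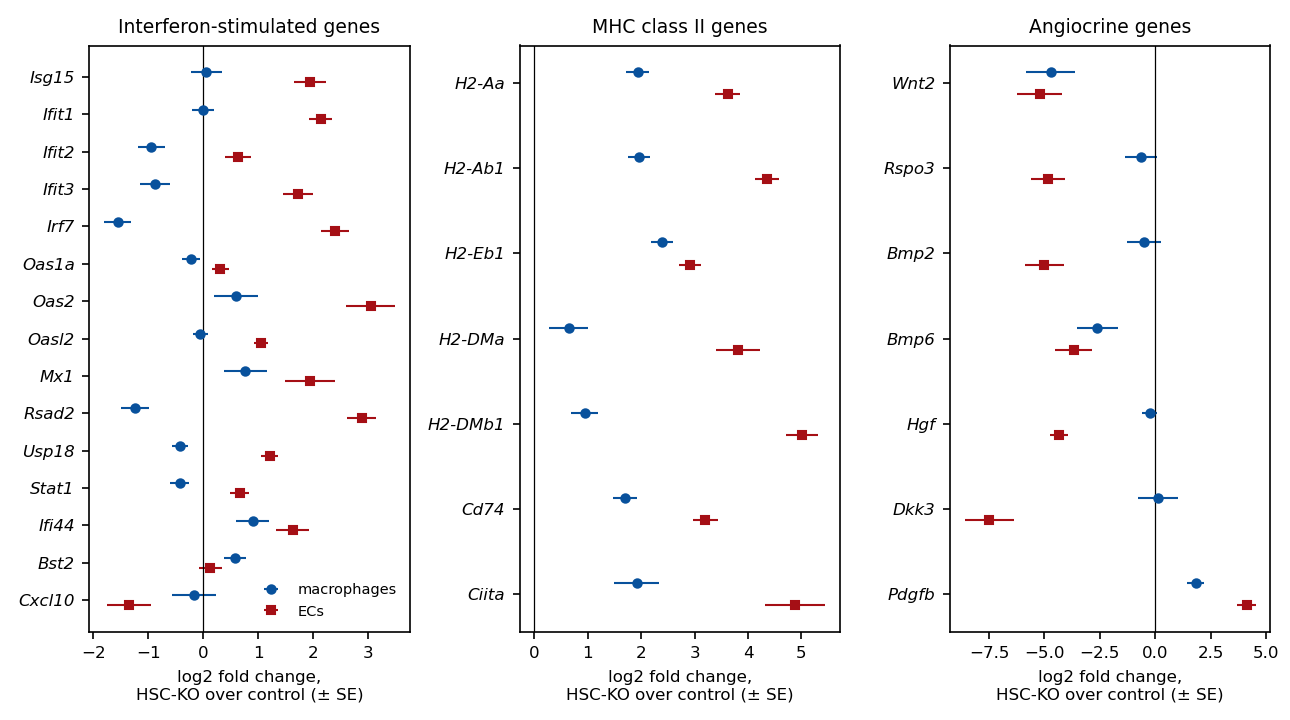
Log2 fold change (HSC-KO over control) with its standard error for each interferon-stimulated, MHC class II and angiocrine gene in macrophages and in ECs. Of the 15 interferon-stimulated genes 10 rose in ECs and 2 fell in macrophages, the MHC class II genes lie higher in ECs, and 7 of the 8 angiocrine genes fell in ECs.

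The identity genes of each cell type fell in their own cells and, in part, in the other. Of the 18 Kupffer cell genes, 15 fell in macrophages, and 12 fell and 1 rose in ECs (medians -4.89 and -5.24, or -3.43 in ECs with 7 genes near 0 counts at their bound), where the control levels of *Clec4f*, *Cd5l*, *Vsig4* and *Timd4* were 0.172, 0.223, 0.27 and 0.211 times the macrophage marker share. Of the 16 sinusoidal EC genes, 11 fell in ECs, and 5 fell and 2 rose in macrophages, the 2 being *Stab1* and *Fcgr2b*. The medians of this list were -3.02 in macrophages and -3.37 in ECs. *Lyve1*, the hyaluronan receptor, fell in ECs from 594, 686 and 646 CPM to 8.73, 4.89 and 6.09 and in macrophages from a mean of 9.21 to 1.1, where the control level was 1.18 times the EC marker share. *Clec4g*, *Gata4*, *Ehd3* and *Dnase1l3* also stood at 0.873, 1.10, 1.27 and 2.31 times that share in control macrophages, and the pan-endothelial share itself was 0.359% to 1.94% there and 0.102% to 0.522% in HSC-KO macrophages, with overlap. Of 17 scavenger and lectin receptors used by both sinusoidal cells, 6 fell and 2 rose in macrophages and 10 fell and 1 rose in ECs, with 8 called differences and medians of -1.38 and -3.33 (-2.85 in ECs with 2 genes at their bound). The 1 that rose in ECs was *Scarb1*, the HDL receptor, from 217, 175 and 219 CPM to 1118, 1582 and 1947, while it had 439.7, 391 and 389 in control and 215, 167 and 248 in HSC-KO macrophages (difference -3.88, SE 0.31, adjusted p = 2.9e-05). *Cd36*, a fatty acid receptor, was called in neither, with a difference of -0.33 and an interval of -1.23 to 0.57.

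Genes of continuous endothelium rose in ECs, 7 of 10 with a median of 3.48, against 1 rise and a median of -0.09 in macrophages. *Cd34*, a sialomucin of capillaries, rose in ECs from 26.3, 34.6 and 19.5 CPM to 553, 872 and 947. Of 12 arterial EC genes, 4 rose in ECs and 2 rose and 3 fell in macrophages (medians 0.63 and -0.09), and of 13 basement membrane genes, 6 rose in ECs and 2 rose and 1 fell in macrophages (medians 2.14 and -0.93). The Notch ligand *Jag1*, of the arterial list, rose in macrophages from 0.725, 1.45 and 0.468 CPM to 31, 17 and 9.78 and had means of 91.8 and 112 in ECs (difference 4.14, SE 0.63, adjusted p = 0.00126). Of 12 chemokine receptor and monocyte genes, 8 rose and 1 fell in macrophages and 2 rose and 1 fell in ECs (medians 2.55 and -0.02). *Cx3cr1*, the fractalkine receptor, rose in macrophages from 33, 20.5 and 25.8 CPM to 1483, 2209 and 1792, and was at or near 0 in ECs, so its difference was not called (adjusted p = 0.087).

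Of 24 lineage transcription factors, 9 fell in macrophages and 3 rose and 6 fell in ECs, with 13 called differences and medians of -1.29 and -0.15. *Rxra*, the partner of LXRα, fell in macrophages from 299, 296 and 258 CPM to 120.4, 77.9 and 117, and had 96.7, 81.1 and 73.5 against 84.7, 62.3 and 78.3 in ECs (difference -1.28, SE 0.27, adjusted p = 0.00817). *Irf8*, a myeloid factor, had means of 366 and 505 CPM in macrophages and fell in ECs from 87.4 to 29.5 (difference 2.03, SE 0.51, adjusted p = 0.0202). *Tfec* fell in both, from means of 42.8 to 19.5 and from 26.7 to 10.8 CPM, and stayed in the alike class in 6 of the 12 fits that left out 1 library. Of 14 LXR and lipid genes, 4 fell in macrophages and 5 rose and 2 fell in ECs (medians -0.30 and 0.41), and of 9 iron genes, 1 rose and 3 fell in macrophages and 2 fell in ECs (medians -0.64 and -0.80). The heme oxygenase *Hmox1*, of the iron list, fell from a mean of 1122 to 338 CPM in macrophages and had 48.4 and 26.7 in ECs. Of 13 cell cycle genes, 1 fell in macrophages and 0 were called in ECs by edgeR or DESeq2, where 2 had an unadjusted p below 0.05, against 5 in macrophages, all lower, beside 30.8% of all genes. Of 12 immediate early and stress genes, 1 fell in macrophages, and in ECs edgeR called 0 and DESeq2 1, which was also the count with an unadjusted p below 0.05. The shares called lie below the background of 10.4% and 11.3% of all genes.

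The classes were then read in libraries that had not entered them. The first set was sorted liver macrophages labelled Smad4FF cKO, from mice with floxed *Smad4* and Vav1 Cre, a Cre that deletes in blood-forming cells and their offspring and can act in some endothelium. There 5.44% of the 17454 genes tested were called, 2.78% higher and 2.66% lower, against Smad4FF controls. *Smad4* itself fell there by 1.39 log2 units (SE 0.16, adjusted p = 0.00228, edgeR). Of the macrophage-only genes that rose in HSC-KO mice, 27.1% rose in *Smad4* cKO macrophages, and of those that fell, 34.5% fell. For the alike genes the shares were 33.1% and 36.1%, and for the opposite genes 35.1% of those higher and 49.4% of those lower in HSC-KO macrophages. Of the EC-only genes, 1.87% of those that rose in ECs rose and 5.61% fell in *Smad4* cKO macrophages, and 2.62% of those that fell in ECs fell and 1.43% rose.

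Among single genes, *Id1*, *Id3* and *Hey1* fell in *Smad4* cKO macrophages by 2.93, 2.44 and 2.96 log2 units (SE 0.25, 0.13 and 0.66; adjusted p = 0.000765, 9.71e-05 and 0.0373), *Smad7* fell by 1.46 (adjusted p = 0.00406), and *Smad6* had -0.71 (adjusted p = 0.248). *Stab1*, *Hvcn1* and *Lgals1* rose by 2.37, 3.39 and 2.60, *Tnfaip2* and *Irf7* fell by 1.79 and 2.30, while *Gpr183* had 0.24 (adjusted p = 0.731), *Fcgr2b* 0.40 (adjusted p = 0.65) and *H2-Ab1* 0.20 (adjusted p = 0.711). *Tgfbr1* rose by 1.72 and *Bhlhe41* by 4.74. Of genes called in ECs only, *Ifit3* and *Cd209b* fell by 1.67 and 1.28 (adjusted p = 0.0208 and 0.00988).

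In whole livers of HSC-KO mice against control livers, where all cell types are mixed, 2.5% of the 16997 genes tested were called, 1.04% higher and 1.46% lower. Of the alike genes, 10.9% of the rising and 21.2% of the falling ones changed the same way, and of the EC-only genes 10.8% and 9.23%. Of the macrophage-only genes that rose, 0.938% rose in liver, and of those that fell 4.30% fell. Of the opposite genes higher in HSC-KO macrophages, 1.33% rose in liver and 6.67% fell, and of those higher in HSC-KO ECs 9.09% rose and 3.41% fell, which are between 1 and 8 genes, and this split was not tested. *Fcgr2b* and *Stab1* fell in liver by 3.39 and 1.21 log2 units (adjusted p = 0.0019 and 0.0235), *Rsad2* rose by 1.93 (adjusted p = 0.0201), *Itga6* rose by 2.35 and *Stab2* fell by 3.30. *Id1* had 0.01 and *Id3* 0.20 there (adjusted p = 0.998 and 0.927).

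**Figure D5:**
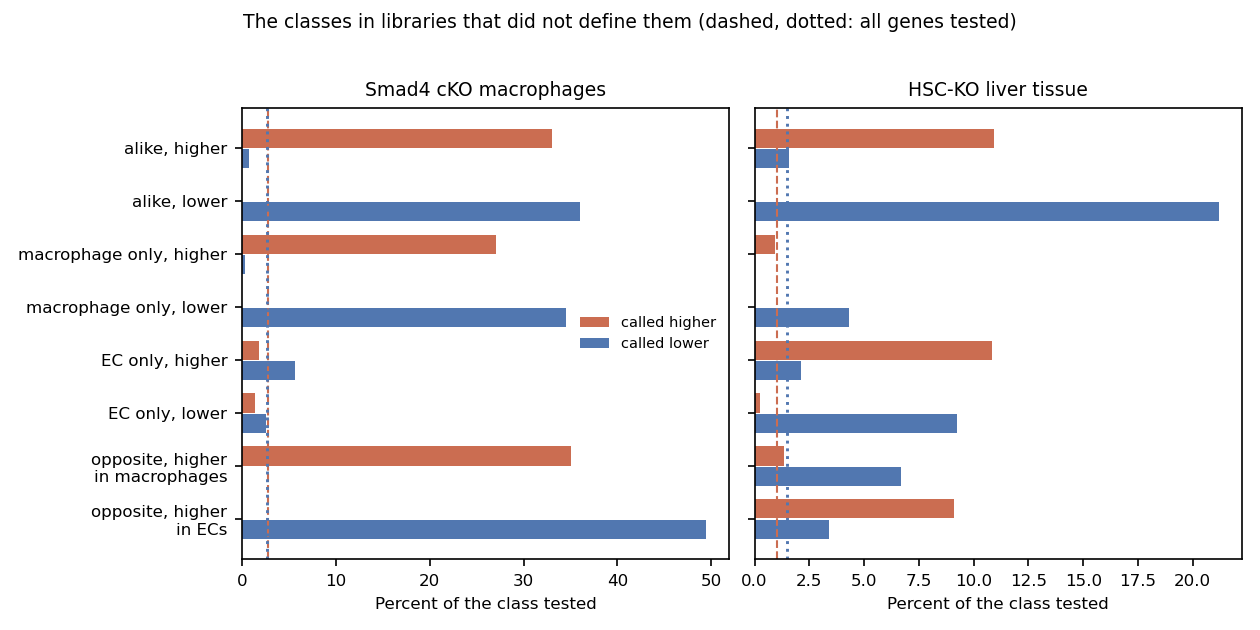
Percent of the genes of each class called higher or lower in *Smad4* cKO macrophages and in HSC-KO livers, with dashed and dotted lines at the percent of all genes tested called higher and lower. In *Smad4* cKO macrophages, classes that involve macrophages stand above the line of the direction they took in HSC-KO macrophages, with 27.1% and 34.5% for the macrophage-only genes. Of the EC-only genes that rose in ECs 1.87% were called higher and 5.61% lower, and of those that fell 1.43% and 2.62%. The lines stand at 2.78% higher and 2.66% lower.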

How the data were processed

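RNA of sorted liver macrophages and ECs was sequenced from 3 *Gdf2/Bmp10* HSC-KO and 3 control mice per cell type. According to the methods, HISAT2 placed reads on mm10 (GRCm38) and featureCounts summed them by gene, and the authors deposited the counts as raw whole numbers in a table for each cell type. Each holds 48820 entries, of which 48337 symbols occur once and were used. Tool versions, annotation, strand setting and the treatment of multiply mapped reads are not given in the sources used here. The library kit is an Illumina Ultra RNA kit in the methods and Hieff NGS Ultima Dual-mode in the labels.

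In R 4.3.3, 1 fit over the 12 libraries, with a coefficient per group, filterByExpr (minimum count 10, total 15), TMM factors and edgeR 4.0.16 quasi-likelihood tests (limma 3.58.1), gave each effect and their difference. Adjusted p values are Benjamini-Hochberg over 18213 genes. Calls required an adjusted p below 0.05 and a log2 size above 1. CPM use TMM factors, and folds are the fitted log2 fold changes on a linear scale. The *Smad4* and liver tables were fitted separately. A marker share is the level a gene would have if the other cell type's RNA entered in proportion to its summed markers. A level of 0 allows up to 3 counts, for counting error only. Gene positions are from GENCODE vM21 and promoters from RefSeq (Python 3.11.15, figures with matplotlib 3.10.9).

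The members, the 18 gene lists and the rule for named genes were set with earlier results of these data known. The rule named, for each class and direction, the 5 genes with the largest size, and pathway genes. Genes named by size had a mean of at least 10 CPM in a group of each cell type called. They had no overlap between genotypes in each called effect. In the macrophage-only and EC-only classes they also had a mean of at least 1 CPM in a group of each cell type. The rule left out clone names, *Xist*, Y-linked genes and genes with an annotated exon overlap on the same strand. It also left out genes with a count of 0 in 1 library and 500 or more in another of its group. 1 gene that it named is not reported here. On simulated counts for this difference (17523 genes) 51% of log2 changes of 1.5 and 79% of 2.5 were recovered, with 6 false calls. Alternatives were DESeq2 1.42.0, other scalings and filters, a test against a log2 value of 1, blocks for replicate number or mouse, *Xist* as a covariate since both sexes occurred, 6-library fits, leaving out genes over 20 times higher in 1 cell type, and leaving out each library. By the labels 3 mice gave both libraries. Deviations from group means correlated at 0.00 to 0.04 in these 3 pairs.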

Additional observations from a re-analysis of the deposited data

Results flagged for a closer look

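The responses of macrophages and ECs to ligand loss differed by the test of the difference for 2244 genes, and those named by size are given here as macrophage minus EC log2 fold change, with no explanation weighed. Among the genes called in macrophages only, the differences were 10.30 for *P3h2*, 6.58 for *Cd63*, 6.45 for *Bhlhe41*, 5.91 for *Ramp1* and 4.90 for *Myo5a*. For the genes that fell in macrophages the differences were -7.72 for *Id1*, -7.50 for *Cdh5*, -7.36 for *Id3*, -6.77 for *St3gal5* and -6.26 for *Dysf*.

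Among the genes called in ECs only, the differences were -12.43 for *Ebf1*, -9.68 for *Rgcc*, -9.66 for *Slc28a2*, -9.06 for *Ly6c1* and -7.95 for *Sparcl1* where the EC level rose. They were 8.56 for *Gpc1*, 8.18 for *Itga8*, 7.82 for *Cd209b*, 7.32 for *Tpbgl* and 6.91 for *Ppp1r9a* where it fell.

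The opposite responses gave 9.70 for *Gpr183*, 7.45 for *Fcgr2b*, 8.31 for *Hvcn1*, 6.54 for *Lgals1* and 5.90 for *Lrrc3*. In the reverse direction they gave -6.69 for *Lzts1*, -5.68 for *Palm*, -10.93 for *Tmem26*, -6.63 for *Tnfaip2* and -5.21 for *Nxpe4*.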

How the results depend on the processing

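Over 23 alternatives, 3137 of 3265 values of 146 named genes kept their side of the threshold (48 of these, in 14 genes with uncalled differences, changed sign), 99 lost and 28 gained a call, and 1 changed sign and gained a call: the *Stab2* difference was 1.45 without EC HSC-KO replicate 1, the highest of its values without 1 library, which started at -0.87. Leaving out each library gave 1815 to 2383 called differences, 1362 to 1934 genes called in the macrophage effect and 1552 to 2129 in the EC effect, 208 to 270 alike, 45 to 83 same-direction, 545 to 769 macrophage-only, 689 to 949 EC-only and 120 to 190 opposite genes. The lowest same-direction counts, 45 and 49, came without macrophage control replicate 3 and without macrophage HSC-KO replicate 1. The test against a log2 value of 1, stricter by construction, called 980 differences, 801 genes in the macrophage effect and 961 in the EC effect, and left 81 alike, 8 same-direction, 331 macrophage-only, 425 EC-only and 38 opposite genes. At least 10 counts in every library, which tests 11876 genes, gave 1257 genes in the macrophage effect and 173 alike genes, and DESeq2 gave 120 same-direction genes. Library size alone moved the median difference from 0.06 to -0.15 and the share of called differences that were higher in macrophages from 51.3% to 37.8%, and kept 139 of the 172 opposite and 227 of the 266 alike genes. *Xist* had counts in 1 control and 2 HSC-KO libraries of each cell type, and the fit with it as a covariate kept 2102 of the 2244 called differences, 132 of the 172 opposite and 215 of the 266 alike genes. With the mouse as a random block, 1938 of the 2244 called differences, 132 of the 172 opposite and 185 of the 266 alike genes were kept. With the replicate number as a block, 2051 differences were called, 1964 of them shared with the fit without it, and 146 opposite genes. Same-numbered libraries correlated between -0.11 and 0.13 in their deviations, over 0.1 in 1 of 18 pairs. The 3 pairs from the same mouse gave 0.00 to 0.04, so this correlation cannot tell whether libraries are related. By the labels, the mice that gave both libraries carry different numbers in the 2 cell types. By class, 73 of 266 alike, 18 of 76 same-direction and 73 of 172 opposite genes kept their class in every one of the 12 left-out-library fits and the 8 other full fits, against 329 of 667 macrophage-only and 395 of 831 EC-only genes.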
